A study of Homo sapiens with 4 samples.

Results

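ZNF609 is the gene whose RNA the capture probes were directed at, and it is described here through every peak that overlapped its span on chromosome 15 (GRCh38, 64459578 to 64686068, gene ID 23060, plus strand). The lists held 1766 peaks in all, and 4 of them lay in this span. ZNF609 was 1 of 847 genes with a peak in any list. RD is an established cell line from an embryonal rhabdomyosarcoma, a tumour of muscle character, and all samples came from RD cells grown in the same medium, with no treatment that differed between them. RNA was captured with biotinylated antisense probes, an even set and an odd set against exon 2 of ZNF609 and a set against the bacterial LacZ mRNA, which human cells do not make. Of the 4 samples, the 3 pull-downs were analysed, with 1 library each, so no value has a replicate error and no test between probe sets was possible. The input sample was not analysed here.

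ZNF609 encodes a nuclear zinc finger protein that works with the cohesin loader NIPBL and the Integrator complex in transcription. Its second exon, which holds the start codon, is also spliced back on itself to form circ-ZNF609, a circular RNA known from myoblasts and rhabdomyosarcoma for its link to cell proliferation. The linear mRNA contains the same exon, followed by the downstream exons and the 3′ untranslated region that the circle lacks. Probes against exon 2 can therefore pair with either RNA, and reads within the exon do not tell them apart. The positions of the exons, the exon sequence and the probe sequences were not used here, so peaks are placed by their distance from the annotated start site and not in named exons.

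With even probes ZNF609 gave 1 peak, with odd probes 3 peaks, and with LacZ probes 0 peaks. The pattern of an even and an odd peak without a LacZ peak was seen in 43 of the 847 genes (5.08%), and the targeted gene was among them. The signal of a peak is its read number per bin of 170 bases, averaged where several bins were joined. It is not scaled to library size, so it ranks peaks within a list and does not measure recovery between lists. ZNF609 took 0.584% of the reads in even peaks, the 28th largest share of 307 genes, where the median gene took 0.127%. It took 0.650% of the reads in odd peaks, the 33rd largest share of 325 genes, where the median was 0.161%. The targeted RNA was thus above the median gene in both lists and was not the leading RNA of either.

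The upstream region held the strongest ZNF609 signal with both probe sets. The even peak lay at chr15:64499361-64500040 and was 4 bins wide, with 704 reads per bin and 2816 reads in all. It began 38783 bases after the start site. The odd peak lay at chr15:64499531-64500040 and was 3 bins wide, with 394 reads per bin and 1182 reads in all. It shared all of its 510 bases with the even peak, which covered 3 of the 4 even bins, and both ended at the same base. Wide peaks were uncommon in the lists, since 11 of 502 even peaks had 4 or more bins and 43 of 542 odd peaks had 3 or more. Among the 94 overlapping pairs of even and odd peaks, the median overlap was 170 bases and 510 was the largest. It was reached by 7 pairs, of ZNF609 and of DES, DDX27, ABCF1, MAP1B, PDCD11 and PRRC2C.

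**Figure D1:**
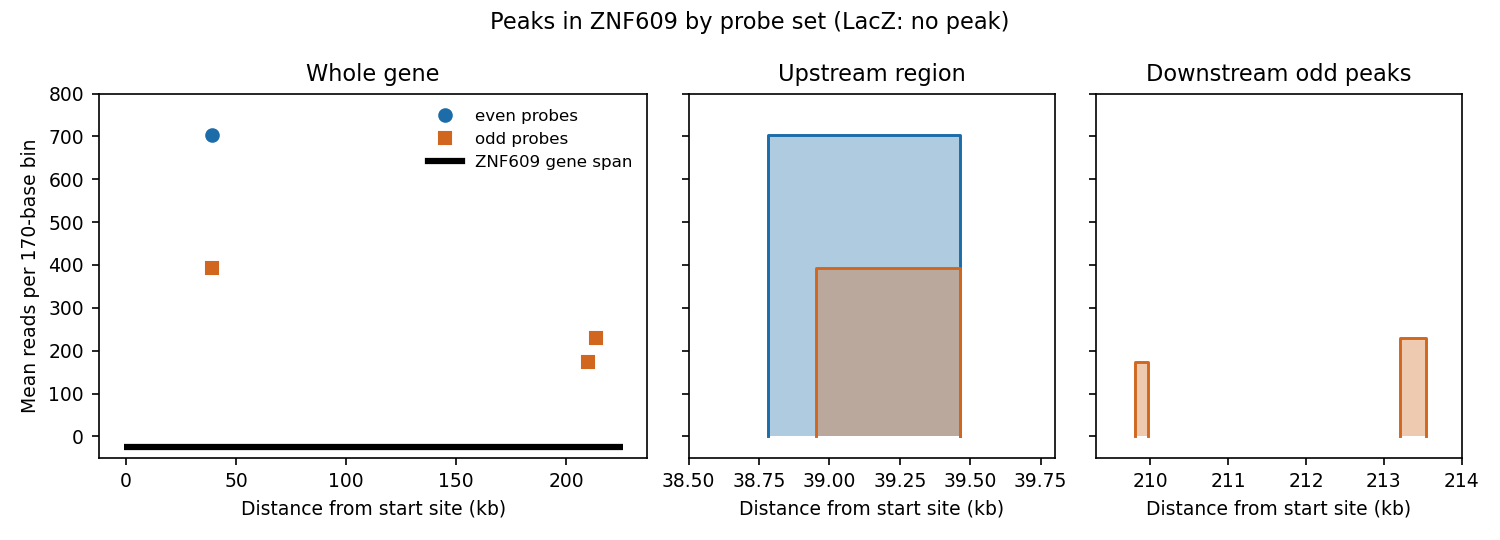
Mean reads per bin of 170 bases (y axis) of the peaks in ZNF609, against the distance from the annotated start site in kilobases (x axis), for the whole gene and for enlarged views of the upstream region and of the downstream odd peaks. Blue marks even probes and orange odd probes; the bar is the gene span, and a peak is drawn at its mean over all of its bins, 704 for even and 394, 174 and 230 for odd.

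The bin that the even peak held and the odd peak did not was the most upstream one, chr15:64499361-64499530. In the deposited column 8, an unnamed score that was equal wherever lists held the identical peak (141 of 141 pairs), all 3 bins of the odd peak were at 1 step, the lowest value of the score (1/4434). The even peak summed to 47.34 steps, which is those 3 steps and a single bin at the fixed value of 0.01, equal to 44.3 steps. The fixed value thus belonged to the extra upstream bin. The sources used here do not say what this score is, but listed peaks needed more reads where it was high. The weakest 1-bin odd peak had 105 reads at 1 step and 300 at the fixed value, so the odd library could hold up to about that number in the extra bin without a peak being listed. The odd peak being narrower does not show that odd reads were absent from the bin.

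The odd probes gave a further pair of peaks near the 3′ end of the gene. One lay at chr15:64670381-64670550, 1 bin wide, with 174 reads, an authors' p-value of 0.00231 and a score of 5 steps. The other lay at chr15:64673781-64674120, 2 bins wide, with 230 reads per bin, 460 reads in all, a p-value of 0.00116 and 19 steps over its 2 bins. They were 3230 bases apart and lay 209803 and 213203 bases after the start site, at 93.1% and 94.6% of the gene span, against 17.7% for the even peak and 17.8% for the upstream odd peak. Of the 1816 odd reads in ZNF609 peaks, 65.1% lay in the upstream peak and 34.9% in the downstream pair. By p-value the downstream peaks ranked 222 and 153 of 542, whereas the upstream odd peak ranked 26.

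These downstream peaks lay 15518 and 11948 bases before the annotated end of the gene, with a gap of 170340 bases to the upstream region. Even probes gave 0 peaks there. In even bins at 5 steps of the score, the weakest 1-bin peak had 122 reads, so an even signal of up to about that size at the first downstream bin would not have been listed. If nothing else removed the bin from the list, odd reads exceeded even reads there by at least 1.43-fold without scaling. This bound compares 1 library with 1 library, is not corrected for their depth and has no replicate error. LacZ probes gave 0 peaks there too, where the weakest LacZ peak at 5 steps had 43 reads.

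A gene with peaks so far apart was uncommon among genes of any length. Of 133 genes with at least 2 odd peaks, ZNF609 was second to SORCS2, its outermost peaks beginning 174250 bases apart. The median gene had 2380 bases between them. These distances were not scaled to gene length. ZNF609 spans 226491 bases, and a gene shorter than the distance could not reach it. Genes of like length were not compared for this distance. Of 325 genes in the odd list, 43 had 3 or more peaks. Among the 30 genes in which even and odd peaks overlapped and LacZ gave no peak, 7 had a further odd peak apart from any even peak. These were ZNF609, EPB41L2, OS9, PLXNA1, PPIG, TCEAL9 and TNNT1. Conversely, 10 of the 30 had a further even peak apart from any odd peak, so a peak seen with a single probe set beside a shared one was not particular to ZNF609 or to odd probes.

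Peaks of all 3 lists leaned to the 3′ side of genes when their position was read along the gene span, in the genes with a strand in the RefSeq start site table. The last 10% of the span held 17.1% of odd peaks (76 of 444, exact Clopper-Pearson 95% interval 13.7 to 21.0), 15.7% of even peaks (59 of 376, 12.2 to 19.8) and 13.8% of LacZ peaks (72 of 522, 10.9 to 17.1). The downstream ZNF609 peaks fell in this stretch. The upstream region fell in the first 20% of the span, which held 14.0% of odd peaks (10.9 to 17.5), 11.7% of even peaks (8.63 to 15.4) and 13.6% of LacZ peaks (10.8 to 16.8). The intervals cover counting error alone, and they overlap between the lists for both stretches. They treat peaks as independent, although 133 genes had 2 or more odd peaks, so they may be too narrow. The lists also share regions, with 94 overlapping pairs of even and odd peaks, so the intervals do not test a difference between lists. Gene spans include introns, and peaks were not placed in exons.

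**Figure D2:**
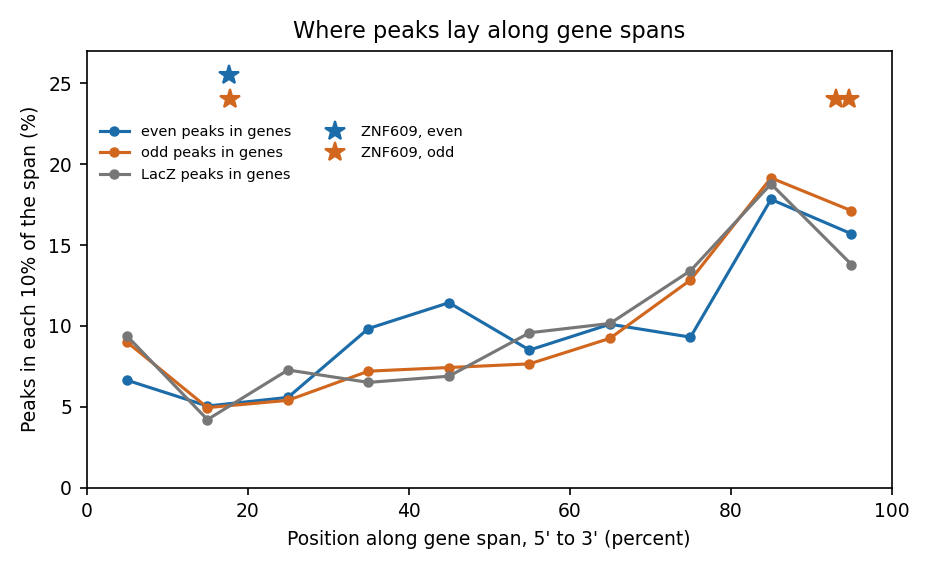
Percent of a list's peaks in genes (y axis) in each 10% of the gene span from 5′ to 3′ (x axis), for even, odd and LacZ peaks as lines. Stars mark where the ZNF609 peaks fell, at 17.7% for even and at 17.8%, 93.1% and 94.6% for odd; their height has no meaning.

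The rank of ZNF609 depended on what was ranked. By the authors' p-value the odd peak stood higher, at rank 26 of 542 (4.80% of the list) with a p-value of 1.67e-05, than the even peak, at rank 63 of 502 (12.5%) with 3.60e-05. By reads per bin the order turned, with rank 77 for even (15.3%) and rank 109 for odd (20.1%). By reads in the whole peak it was rank 22 for even (4.38%) and rank 47 for odd (8.67%). The even p-value was large for its read number beside 1-bin even peaks at 1 step, where UPF3B with 691 reads had 1.21e-08 and RPTOR with 623 reads had 5.42e-08. In the odd list, ITSN1 with 431 reads had 2.90e-06 and PAF1 with 310 reads had 5.11e-05, on either side of the ZNF609 peak. The even peak contains the bin at the fixed value and the odd peak does not. The sources used here do not say how p-values of joined bins were combined, and the part of that bin in the even rank was not tested.

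Among the 48 odd peaks with every bin at 1 step, ZNF609 had the third most reads per bin, after a pair of peaks in ITSN1, and the median of these peaks was 159.5. Only 3 of the 48 were 3 or more bins wide, in ZNF609, UBE2Q1 and EPS8L2.

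**Figure D3:**
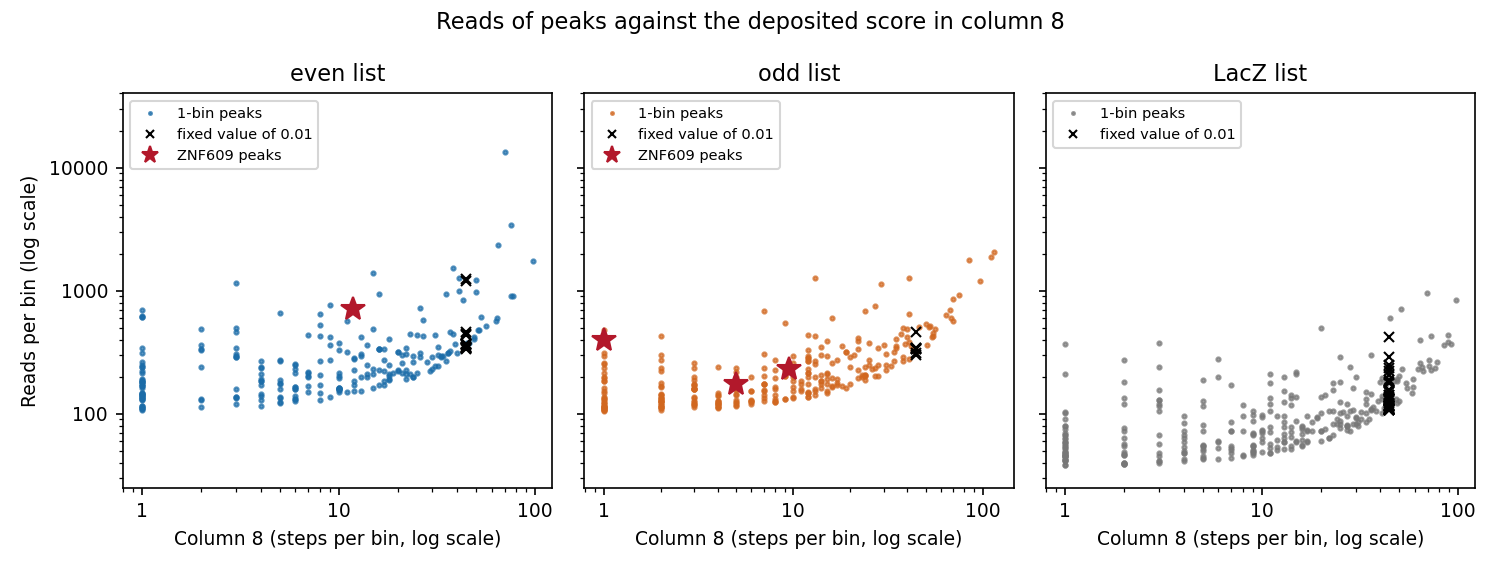
Reads per bin (y axis, log scale) of each 1-bin peak against the deposited score of column 8 in steps (x axis, log scale), for the even, odd and LacZ lists; crosses are bins at the fixed value of 0.01 and stars the ZNF609 peaks at their mean score. The lower edge of the points rises with the score, and the upstream odd ZNF609 peak (394 reads per bin) lies near the top of the points at 1 step.

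The absence of a LacZ peak bounds the background at the upstream region. In LacZ bins at 1 step the p-value fell with every rise in reads, and the weakest listed 1-bin peak had 38 reads. If the list is complete, fewer than 38 LacZ reads lay in each of the 3 shared bins, and fewer than 107, the weakest LacZ peak at the fixed value, in the extra even bin. The unscaled ratio of odd to LacZ reads per bin was then at least 10.4. Over the 88 pairs of odd and LacZ peaks that overlapped anywhere the median ratio was 2.37 and the highest 9.56, so all 88 lay below this bound. For even, the bound over the whole peak was 12.7, where 67 of 74 overlapping pairs of even and LacZ peaks lay lower (median 2.87) and 7 lay higher, up to 34.4. These pairs were chosen for having a LacZ peak, so they describe captured background and not the genes that LacZ missed. The odd bound was divided by 38, the lowest reads per bin of any listed LacZ peak, so no pair had a smaller divisor. No such bound was computed for other genes without a LacZ peak, and whether ZNF609 stands out among them was not tested. At the first downstream odd peak the bound was lower, at least 4.05.

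The balance of even and odd reads at ZNF609 was ordinary among shared regions. The even peak, averaged over 4 bins, had 1.79 times the reads per bin of the odd peak, averaged over 3 bins and not scaled to depth, and 60 of the 94 overlapping pairs had a lower ratio. The median pair was at 1.31, with quartiles of 0.906 and 2.40. Summed over whole peaks the ZNF609 ratio was 2.38 and the median 1.38.

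Among the 43 genes that both ZNF609 probe sets gave peaks in and LacZ did not, ZNF609 held the 8th best even rank and the 7th best odd rank by p-value. The genes ahead of it with even probes were ANP32B, DDX27, PELP1, HMGN5, RAD21, RDX and KNOP1, and those ahead with odd probes were TCEAL9, SRRM1, PLXNA1, UPF2, BRPF1 and OS9. These sets had 0 genes in common. That was not particular to ZNF609. ANP32B, DDX27, RDX, BRPF1, SRRM1 and TCEAL9 also had 0 genes ahead of them with both probe sets. By share of reads ZNF609 was 4th of the 43 with even and 6th with odd probes.

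**Figure D4:**
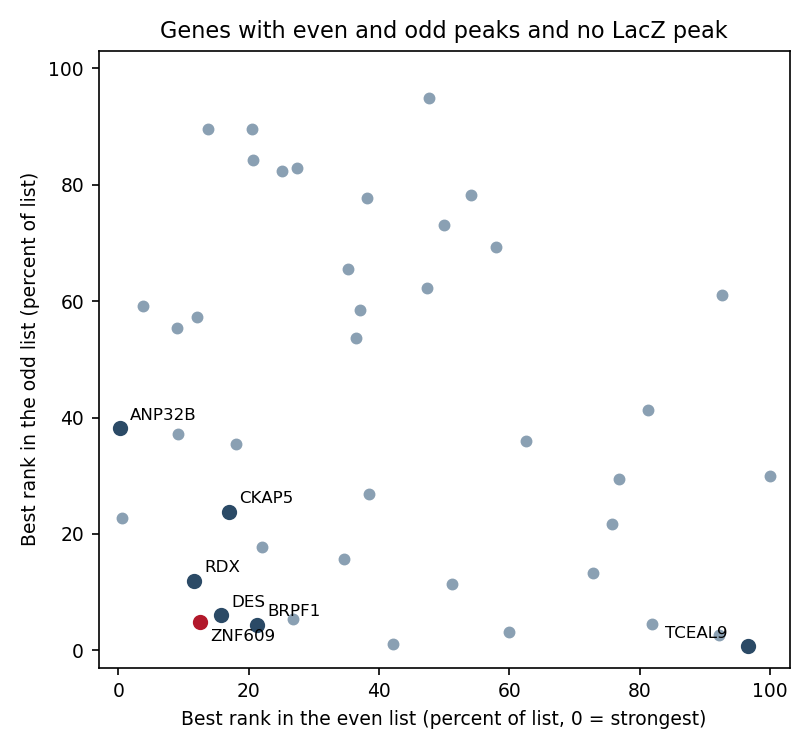
Best rank of each of the 43 genes listed for even and for odd but not for LacZ, as percent of the even list (x axis) and of the odd list (y axis), by p-value; 0 is the strongest. ZNF609 (red) lies at 12.5% and 4.80%, and 0 genes lie both further left and lower. The same holds for ANP32B, DDX27, RDX, BRPF1, SRRM1 and TCEAL9.

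The genes most like ZNF609 in their reads were found by the Bray-Curtis distance between their shares of the reads in the 3 lists, which is 0 for equal shares. The nearest was DES (distance 0.0804), which encodes desmin, the intermediate filament protein of muscle, with 0.414% of even, 0.636% of odd and 0% of LacZ reads. PES1 (0.130), a factor of ribosome assembly, had 0.307% and 0.643% with 0% in LacZ. NES (0.137), the intermediate filament protein nestin, had 0.711% and 0.594%, and unlike ZNF609 it had 2 LacZ peaks with 0.192% of LacZ reads. RAD21 (0.212), a cohesin subunit, had 0.419% and 0.383% with 0% in LacZ, and ABCF1 (0.246), an ATP-binding protein tied to translation, had LacZ reads (0.282%). DES was also the nearest when best ranks were compared, and the 4 others were then RDX, BRPF1, EPB41L2 and DNAJC8. The likeness rests on 3 values per gene, and each share depends on all other reads of its list.

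No other gene near ZNF609 had even and odd peaks. Within 1 megabase on either side lay 56 annotated genes, 33 of them protein-coding. The nearest even peak outside ZNF609 was in ANKDD1A, 267193 bases beyond the gene end, with 163 reads in 1 bin and rank 261 of 502. The nearest LacZ peak lay 303278 bases before the gene start, where SNX22 and PPIB overlap, with 46.5 reads per bin and rank 599 of 722. Odd probes gave 0 peaks in this neighbourhood outside ZNF609. Of the 6 annotated genes that lie within ZNF609 or overlap its start, among them the long noncoding RNA gene LOC101930091 and pseudogenes of GAPDH and ribosomal protein genes, 0 held a ZNF609 peak. All peaks were listed on the plus strand, so the lists do not tell the strand of the RNA, and no other annotated gene overlapped the ZNF609 peaks.

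Genes tied to ZNF609 by function were counted against the share of all annotated genes with a peak, which was 0.514% for even, 0.544% for odd and 0.747% for LacZ. Those annotated genes include noncoding genes and pseudogenes. Of 18 genes for NIPBL, its partner MAU2 and Integrator, 0 had a peak in any list. The paralogue ZNF608 had 0 peaks. Of 6 genes tied to circ-ZNF609 in rhabdomyosarcoma or muscle, CKAP5, the microtubule polymerase gene in the series title, alone had a peak. The list was chosen with earlier results of these data known, so this count does not measure enrichment over that share. CKAP5 ranked below ZNF609 with both probe sets, at 85 of 502 and 129 of 542. The other 5, among them ELAVL1, which encodes an RNA-binding protein that stabilises mRNAs, and CDK1, had 0 peaks.

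Other genes known for abundant circular RNAs were counted in the same way. Of 25 such genes, 0 had an even peak, 2 an odd peak and 2 a LacZ peak, beside 0.514%, 0.544% and 0.747% of annotated genes. Annotated genes include noncoding genes and pseudogenes, so these shares are a low base. Of 2529 other protein-coding genes with spans from 0.5 to 2 times that of ZNF609, 2.81%, 2.41% and 3.20% had such peaks. The 25 were not matched to either base, and no enrichment was tested. The combination of an even and an odd peak without a LacZ peak was seen in 0.072% of annotated genes, so its absence from 25 genes is no result about them. QKI, which encodes an RNA-binding protein that promotes circle formation, had 1 odd peak with 136 reads per bin at rank 410. AMOTL1 had 2 odd and 3 LacZ peaks, and CAMSAP1 had 2 LacZ peaks. HIPK3, CDYL and ASXL1 were among the 22 with 0 peaks. Peak lists do not show the level of a gene, so a gene without a peak may still be expressed or captured below the limit of the list.

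Markers of the labelled cell type were looked up in the lists, which cannot test the label, since they do not give the level of a gene. Of 8 muscle markers, DES, TNNT1 and TNNT2 had peaks, and TNNT2 had them in all 3 lists with 5 even, 8 odd and 5 LacZ peaks. MYOD1 and MYOG had 0 peaks. The 6 markers of blood, liver and epithelial cells also had 0 peaks, as most genes did, since 0.514% of annotated genes had an even, 0.544% an odd and 0.747% a LacZ peak.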

How the data were processed

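The 3 pull-downs of RD cells each have a peak list. The tools in the submitters' processing notes are STAR 2.5.2b, Trimmomatic, SAMtools, Picard, bedtools and bcl2fastq 2.0.2, with GRCh38; the list names give Piranha. The sources used here do not state settings or duplicate treatment. The deposited signal is reads per bin of 170 bases, unscaled; it was whole per peak in all peaks (tolerance 0.02 reads). The deposited p-value was below 0.01 in every peak; correction for multiple testing is not stated. The deposited score in column 8 was decoded as whole steps plus bins at 0.01 (tolerance 0.005 steps). Reads in peaks numbered 482418 (even), 279415 (odd) and 219401 (LacZ); library depth is unknown.

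Peaks were assigned with Python 3.11.15 and pandas 2.3.3 to RefSeq GRCh38.p14 gene spans by most overlapping bases, then protein-coding, then shorter genes. Overlap meant at least 1 base. Overlap and gene assignment were tested on simulated peaks. Named were ZNF609, the 5 genes most like it, genes with peaks within 1 Mb and members of lists; other genes were named after their values were seen. Members and lists were chosen with earlier results of these data known. One list member is not reported here.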

Additional observations from a re-analysis of the deposited data

How the results depend on the processing

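No paired analysis was possible because each probe set has 1 library, and for the same reason no replicate could be left out. LacZ kept 0 ZNF609 peaks under every alternative run for it. That outcome was fixed in advance and shows no robustness. The alternatives only removed peaks or extended the span by 10 kb, and the nearest LacZ peak lay 303278 bases away. With peaks limited to a p-value at or below 0.001, odd kept 1 ZNF609 peak, the downstream pair being lost, ZNF609 took 1.09% of even reads, its ranks became 36.2% (even) and 18.7% (odd) of shorter lists, its even to odd ratio lay above 76.2% of the shared pairs (63.8% in the full lists), and the 43 genes that both ZNF609 probe sets shared without LacZ fell to 11. Without peaks over bins at the fixed value, ZNF609 had 0 even peaks, 0% of even reads and 0 bases shared with odd. The setting removed the whole even peak for 1 such bin of 4. The overlap thus rests on keeping that peak, although the bin itself lay outside the shared bases. Ranked by reads per bin, the odd peak stood at 20.1%; ranked by reads in the whole peak, at 8.67%, and the even peak at 4.38%. ZNF609 held 0.199% of even peaks. By best ranks, 1 of the 5 most alike genes was the same. Of 44 values recomputed, 30 stayed within their limits: 1.5 times the value, or its 95% interval for ranks. The 30 include values that could not change, such as the LacZ counts of 0. Depth limits the downstream comparison, since the bounds rest on the weakest listed peaks.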

Other observations

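ZNF609 is a long gene, and genes of like length were counted beside it. Of 2529 other protein-coding genes with spans from 0.5 to 2 times that of ZNF609, 2.81% had an even peak, 2.41% an odd peak and 3.20% a LacZ peak. Even and odd peaks without a LacZ peak were found in 10 of them (0.395%): AHNAK, CALD1, EPB41L2, HUWE1, MDN1, MYH10, RDX, RSF1, TSNARE1 and UPF2. In the odd list 9 of the 2529 had 3 or more peaks, as ZNF609 did. These genes were chosen by length after the values were seen.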
